A study of Caenorhabditis elegans with 2 samples.

Results

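Outside the genes and promoters of the 5 autosomes of Caenorhabditis elegans, 639 intervals were found among the 5000 of highest pooled signal in a ChIP-seq experiment on the transcription factor SPR-3. They made up 12.8% of the 5000. Signal here is a score of ChIP over control from the authors' peak calling, in arbitrary units. The members were chosen by that pooled signal and by position. The summit of a member lay outside every protein-coding gene and outside every promoter window, which ran from 1000 bp upstream to 200 bp downstream of a protein-coding 5′ end. It also lay more than 200 bp from any tRNA, snRNA or snoRNA gene. The signals of the members are therefore a description of what the rule selected, and no test was made of them.

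The worms were of strain OP703, which carries the unc-119(tm4063) mutation and the transgene wgIs703, made of spr-3::TY1::EGFP::3xFLAG with unc-119(+). Mixed-sex L4 larvae were used at an age of 49 hours, grown from starved L1 larvae, and the fusion protein was precipitated from whole worms with an antibody to GFP. There were 2 biological replicates of this 1 group, both set against the same control file, and no second condition was compared. The profile averages all tissues of the worm, and it reports the tagged transgene protein in a single line.

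SPR-3 has C2H2 zinc fingers and resembles the vertebrate repressor REST, and it was identified because its loss suppresses defects caused by mutation of sel-12, a presenilin gene. The worm genome is compact, with short distances between neighbouring genes. Many worm transcripts receive a spliced leader in place of their own 5′ end, so an annotated 5′ end can lie downstream of the site where transcription starts. Sequence between genes may hold enhancers, unannotated starts, noncoding RNA genes, gene remnants and repeats. The nearest gene to a distal site need not be its target.

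The sequences below show the DNA at the strongest members and, where they occur, the 8-base words described later. Each is a summit base with 50 bp to either side, written 5′ to 3′ on the plus strand of WBcel235 (ce11) from the RefSeq assembly, and capitals mark GAGACGCA or AGAGAGAG and their reverse complements TGCGTCTC and CTCTCTCT. The first 8 belong to the members of highest signal for which a sequence is printed, the next 4 to further members with GAGACGCA, and the last 2 to further members with AGAGAGAG.
npl-4.1 / F59E12.8, II:5633589-5633689, pooled signal 534.7: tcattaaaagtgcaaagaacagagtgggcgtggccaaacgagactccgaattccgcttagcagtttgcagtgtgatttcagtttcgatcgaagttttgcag
cutl-22 / cmd-1, V:1151466-1151566, pooled signal 524.2: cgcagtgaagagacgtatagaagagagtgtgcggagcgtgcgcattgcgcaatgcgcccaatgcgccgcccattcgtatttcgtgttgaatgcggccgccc
T04C4.3 / fnip-2, IV:2219590-2219690, pooled signal 432.3: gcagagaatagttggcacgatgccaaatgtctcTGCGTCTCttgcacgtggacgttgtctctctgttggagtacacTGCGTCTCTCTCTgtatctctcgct
sup-26 / R10E4.3, III:4282161-4282261, pooled signal 387.1: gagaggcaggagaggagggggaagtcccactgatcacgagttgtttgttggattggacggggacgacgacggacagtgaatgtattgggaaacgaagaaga
srw-60 / nhr-88, II:2974054-2974154, pooled signal 362.9: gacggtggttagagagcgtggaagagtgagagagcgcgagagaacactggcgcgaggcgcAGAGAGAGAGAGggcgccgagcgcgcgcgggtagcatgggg
nlp-46 / T28H10.2, V:12510124-12510224, pooled signal 324.3: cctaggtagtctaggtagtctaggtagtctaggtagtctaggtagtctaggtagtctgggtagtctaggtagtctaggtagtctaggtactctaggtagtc
F09E5.7 / srg-69, II:5353807-5353907, pooled signal 272.8: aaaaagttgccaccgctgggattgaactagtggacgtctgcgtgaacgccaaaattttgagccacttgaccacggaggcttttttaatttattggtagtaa
cpt-1 / Y46G5A.18, II:12798858-12798958, pooled signal 258.9: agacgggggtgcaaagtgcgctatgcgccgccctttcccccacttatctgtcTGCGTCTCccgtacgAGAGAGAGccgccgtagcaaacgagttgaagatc
acs-5 / Y76A2B.4, III:13544763-13544863, pooled signal 164.7: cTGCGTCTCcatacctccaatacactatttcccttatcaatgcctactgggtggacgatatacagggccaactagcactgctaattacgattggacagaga
W08G11.1 / pptr-1, V:16356052-16356152, pooled signal 159.0: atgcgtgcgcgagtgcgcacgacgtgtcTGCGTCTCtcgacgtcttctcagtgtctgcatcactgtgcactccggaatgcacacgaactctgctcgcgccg
cng-2 / R05C11.4, IV:2049007-2049107, pooled signal 153.1: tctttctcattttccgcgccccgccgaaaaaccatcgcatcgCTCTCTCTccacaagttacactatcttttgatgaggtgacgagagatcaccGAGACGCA
F54F12.1 / Y39E4B.6, III:13061292-13061392, pooled signal 145.2: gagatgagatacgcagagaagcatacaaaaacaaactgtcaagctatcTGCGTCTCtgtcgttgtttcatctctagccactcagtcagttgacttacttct
C01G6.4 / gldi-3, II:9274083-9274183, pooled signal 158.6: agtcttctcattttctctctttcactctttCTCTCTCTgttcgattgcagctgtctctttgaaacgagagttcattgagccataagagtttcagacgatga
chw-1 / egl-9, V:10466792-10466892, pooled signal 153.5: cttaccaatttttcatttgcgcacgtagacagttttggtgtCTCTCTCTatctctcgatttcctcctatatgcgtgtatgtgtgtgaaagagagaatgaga
Most of the first 8 held neither word. GAGACGCA or its complement stood in 2 of them, between T04C4.3 and fnip-2 and between cpt-1 and Y46G5A.18. The first of these held it 2 times, once running into a stretch of alternating CT. The sequence between nlp-46 and T28H10.2 was a tandem repeat of a short unit over its whole length, and that between srw-60 and nhr-88 was rich in GA and GC.

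Pooled signal of the 639 members had a median of 100.4, with an interquartile range of 90.6 to 120.5 and extremes of 84.3 and 534.7. The median over all 5000 intervals was 101.4. Medians of the most similar classes were 109.8 for 187 distal intergenic intervals on X, 97.3 for 830 autosomal intron intervals and 108.4 for 1160 autosomal promoter intervals. Differences between classes were described only and were not tested. The authors' −log10 q-value of the members lay between 0.402 and 3.10 with a median of 0.695. Most members, 628 of 639 (98.3%), were 430 bp wide, the most common width in the list, and 11 were narrower.

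The 3 members just inside the limit of 5000 had signals of 84.43 (II 11944646 to 11945075, between lin-29 and W03C9.8), 84.38 (V 17143771 to 17144200, between ZK218.11 and F40D4.17) and 84.35 (III 1978599 to 1979028, between R155.3 and srd-66). The 3 intervals of the same kind just outside it had 84.26 (III 9775103 to 9775532, between cbp-1 and usp-46), 84.25 (III 12583444 to 12583873, between aakg-1 and gldi-8) and 84.25 (III 1062443 to 1062872, between BE0003N10.6 and uaf-1). The limit thus fell within a continuous run of values.

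The authors' thresholded set, made by an irreproducible discovery rate (IDR) procedure, held 91 of the 639 members (14.2%, exact 95% binomial interval 11.6 to 17.2%), against 18.9% of all 5000. These 91 had signals between 138.6 and 534.7, and the other 548 between 84.3 and 138.0, so that membership of the thresholded set was a division by pooled signal. The interval here and for later shares covers counting error among regions only and not variation between worm cultures.

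At the strongest members both replicates gave high values. All of the 20 members of highest pooled signal were in the thresholded set and overlapped by the 5000 highest candidates of each replicate. Their ranks ran between 25 and 1069 in replicate 1 and between 36 and 1258 in replicate 2. Their place in the thresholded set followed from their pooled signal. The replicate values are not independent of the pool that chose these members. Of the 20, 4 lay between convergent genes, 3 between divergent genes and 13 between genes in tandem. Chromosomes I to V held 5, 6, 3, 4 and 2 of them.

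**Figure D1:**
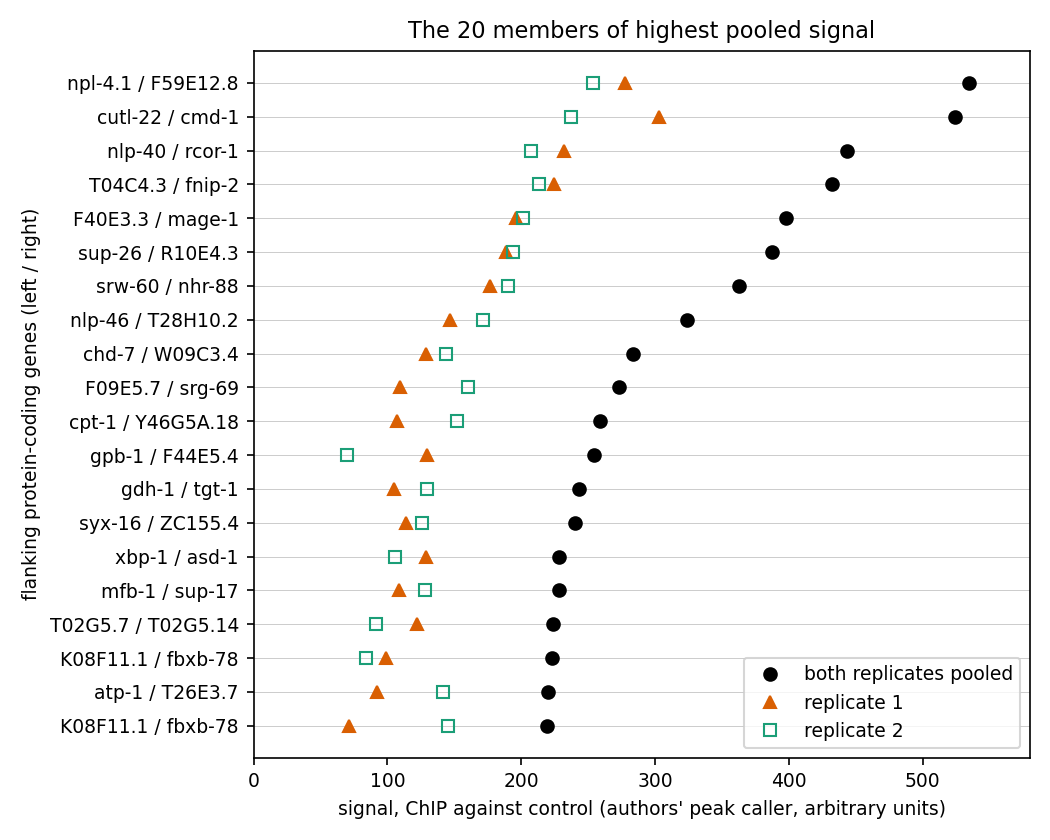
Signal of the 20 members of highest pooled signal, each named by its flanking protein-coding genes. Pooled signal, signal in replicate 1 and signal in replicate 2 are in arbitrary units on a linear axis, with 1 point per list and no error. Pooled signal runs between 219.3 and 534.7, and the 7 highest members have at least 176.3 in replicate 1 and 189.8 in replicate 2.

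The highest member lay between 2 convergent genes, npl-4.1, which encodes a cofactor of the AAA ATPase CDC-48, and F59E12.8 (II 5633539 to 5633748). Its signal was 534.7 in the pool, 277.5 in replicate 1 (rank 38) and 253.8 in replicate 2 (rank 36). The summit was 355 bp from npl-4.1 and 889 bp from F59E12.8, so that it faced the 3′ ends of both. The member between nlp-40, a neuropeptide gene, and rcor-1, a gene related to CoREST corepressors, was also placed between 3′ ends (I 16914 to 17103). It had 443.2 in the pool, 232.3 in replicate 1 and 207.3 in replicate 2, with the summit 171 bp from nlp-40 and 476 bp from rcor-1, and it held GAGACGCA. Between gdh-1, a glutamate dehydrogenase gene, and tgt-1, which encodes a tRNA-guanine transglycosylase, the signal was 243.3 in the pool, 105.0 in replicate 1 and 129.6 in replicate 2 (IV 11955670 to 11956099). The last convergent pair was atp-1, the gene of an ATP synthase subunit, and T26E3.7 (I 12654556 to 12654985), with 220.2 in the pool, 92.0 in replicate 1 and 141.3 in replicate 2. All 4 summits were within 500 bp of the 3′ end of at least 1 flanking gene.

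Of the members between divergent genes, the highest lay between T04C4.3 and fnip-2, a gene related to folliculin-interacting proteins (IV 2219425 to 2219854). Its signal was 432.3 in the pool, 224.4 in replicate 1 and 213.2 in replicate 2. The summit was 2784 bp from T04C4.3 and 3188 bp from fnip-2, outside both promoter windows, and the interval held both words printed above. Between chd-7, a chromodomain helicase gene, and W09C3.4 the values were 283.5, 128.5 and 143.9 for the pool, replicate 1 and replicate 2 (I 4701191 to 4701620), and the long noncoding RNA gene linc-91 was within 200 bp. Between mfb-1, an F-box protein gene, and sup-17, which encodes an ADAM metalloprotease that acts in Notch signalling, they were 228.0, 108.5 and 127.8 (I 8786750 to 8787179). That summit was 1550 bp from mfb-1 and 5999 bp from sup-17 and held GAGACGCA. These 3 sites were thus placed upstream of both flanking genes, and each held at least 1 of the 2 words. The words were picked at summits of the thresholded set, which includes these 3, so their presence here is not independent evidence.

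Among members between genes in tandem, the highest stood in a long gap between cutl-22, a cuticlin-like gene, and cmd-1, the calmodulin gene (V 1151403 to 1151617). It had 524.2 in the pool, 303.1 in replicate 1 (rank 25) and 237.2 in replicate 2 (rank 43), with the summit about as far from one gene (5015 bp) as from the other (4755 bp) and within 200 bp of linc-128. The member between sup-26, the gene of an RNA-binding protein, and R10E4.3 had 387.1 in the pool, 188.3 in replicate 1 and 193.9 in replicate 2 (III 4282103 to 4282245). The member between srw-60, a chemoreceptor gene, and nhr-88, a nuclear hormone receptor gene, had 362.9, 176.3 and 189.8 (II 2973889 to 2974318), in a gap where srw-60 was 12221 bp away. The 2 replicates ranked each of these 3 members within their 102 highest candidates.

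Replicate values of others of the 20 were lower. Between gpb-1, the gene of a G protein beta subunit, and F44E5.4 the signal was 254.5 in the pool, 130.0 in replicate 1 (rank 212) and 69.7 in replicate 2 (rank 1258) (II 11749664 to 11750093). Between F09E5.7 and srg-69, a chemoreceptor gene, it was 272.8 in the pool, 109.4 in replicate 1 (rank 339) and 160.5 in replicate 2 (rank 122) (II 5353782 to 5353919). Between cpt-1, a carnitine palmitoyltransferase gene, and Y46G5A.18 it was 258.9, 107.0 and 152.4 (II 12798693 to 12799122), and this interval held both words. The member beside xbp-1, which encodes a bZIP factor of the unfolded protein response, lay 230 bp from that gene and 1697 bp from asd-1, a splicing regulator gene (III 4195373 to 4195802), with 228.2 in the pool, 128.9 in replicate 1 and 105.8 in replicate 2.

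Repeated sequence was present at several of the 20. At 4 of them at least 50% of the 36-base words of the summit window occur elsewhere in the genome. These were the members between F40E3.3 and mage-1 (I 2639706 to 2639880, signal 397.8, 59.5% of words repeated), between syx-16, a syntaxin gene, and ZC155.4 (III 5211104 to 5211533, 240.1, 72.4%), and a pair between K08F11.1 and fbxb-78 on IV. The pair stood at 4727919 to 4728348 (222.8, 100% repeated, at the pseudogene K08F11.6) and at 4725478 to 4725659 (219.3, 51.7%, at the noncoding RNA gene K08F11.7). The member between nlp-46 and T28H10.2 (V 12509959 to 12510388, 324.3) had 98.0% of its window soft-masked, which is the tandem repeat printed above. The member between T02G5.7 and T02G5.14 lay at the pseudogene T02G5.4 (II 7081781 to 7082210, 223.6). The sources used here do not say how reads from repeated sequence were placed, and the part of repeats in these signals was not tested. Over all 639 members, 15 (2.35%, 1.32 to 3.84%) had at least 50% of their 36-base words repeated, against 0.90% of all 5000, 0.843% of intron and 0.690% of promoter intervals, and 563 (88.1%) had none.

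Below the strongest sites the replicates shared fewer members. The 5000 highest candidates of replicate 1 overlapped 405 members (63.4%, against 66.5% of all 5000). Those of replicate 2 overlapped 421 (65.9%, against 67.8%). Both overlapped 248 (38.8%, 35.0 to 42.7%), against 42.7% of all 5000, and neither overlapped 61 (9.55%, against 8.42%). The share overlapped in both was 51.3% for X intergenic, 32.7% for autosomal intron and 52.2% for autosomal promoter intervals. When the overlap had to cover at least 50% of both intervals, 226 members (35.4%) were shared, against 38.8% of all 5000. Of the 91 members in the thresholded set, 88 (96.7%) were overlapped in both replicates, against 160 (29.2%) of the other 548. Since the pool is made of the 2 replicates, a high pooled signal and high replicate ranks are not independent.

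Some members were carried by 1 replicate. The strongest one outside the 5000 highest of replicate 1 lay between mml-1, which encodes a Mondo-type bHLH factor, and T20B12.7 (III 7376282 to 7376711). Its signal was 177.1 in the pool, 46.7 in replicate 1 (rank 5216) and 128.8 in replicate 2 (rank 213). The strongest outside those of replicate 2 lay between R12E2.6 and R12E2.7 (I 4153365 to 4153794), with 142.6 in the pool, 98.2 in replicate 1 (rank 460) and 35.1 in replicate 2 (rank 13203). No candidate of any rank overlapped 15 members in replicate 1 (2.35%, against 1.92% of all 5000) and 12 in replicate 2 (1.88%, against 1.9%). These shares were near those of all 5000. Across the 612 members matched in both replicates, Spearman's rho of the signals was 0.0905 (Pearson's r of log2 signal 0.309). It was 0.379 over 181 X intergenic, −0.03 over 789 intron and 0.402 over 1121 promoter intervals. Within the members, rho was 0.352 over the 91 in the thresholded set and −0.28 over the other 521 matched. These correlations describe intervals picked on the sum of both libraries, with a shared control, and carry no p-value. The spread behind these values can be seen in the plot of one replicate against the other.

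**Figure D2:**
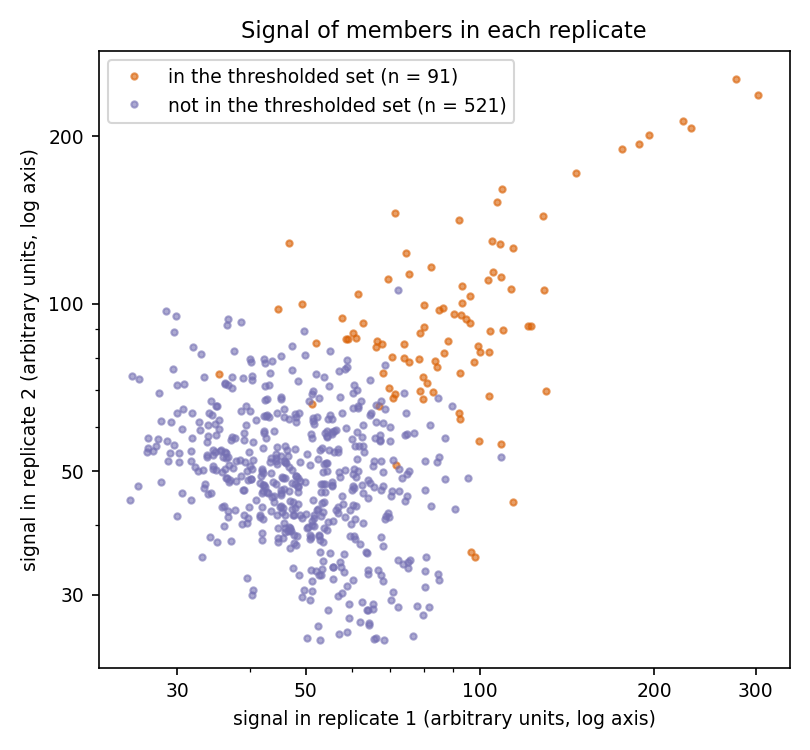
Signal of the 612 members matched in both replicates, replicate 1 on the horizontal and replicate 2 on the vertical log axis, in arbitrary units, with 1 point per member. The 91 members of the thresholded set run along the diagonal at the upper right, and the other 521 form a cloud in which members high in one replicate tend to be low in the other (Spearman's rho −0.28).

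The DNA at member summits was richer in GC than the sequence around it. The summit window, which reached 75 bp to either side of the summit, had a median GC content of 44.4% (interquartile range 38.4 to 49.7%), against 33.8% both in 1278 windows 500 bp to either side and in 127827 windows that tile all autosomal sequence in which a member could lie. Mean GC was 44.4% at the summit, 35.2% at 500 bp to the left and 34.7% at 500 bp to the right. The other classes had the same central rise, with medians of 43.7% for X intergenic, intron and promoter windows alike and 45.0% over all 5000. GC content can also change how well DNA is amplified and sequenced, and its part in the signal was not tested.

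Soft-masked sequence, which is repeat and low-complexity sequence as marked in the reference, followed the opposite course. It made up a mean of 23.7% of bases at the summit, against 39.0% at 500 bp to the left and 38.7% to the right. At least 50% of the window was masked at 89 members (13.9%), against 35.5% of the tiling windows, and no base was masked at 161 (25.2%), against 10.3%. The first share was 19.3% in intron intervals, 12.1% in promoter intervals and 9.2% over all 5000. At member summits mean GC was thus higher, and mean masking lower, than 500 bp to either side.

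**Figure D3:**
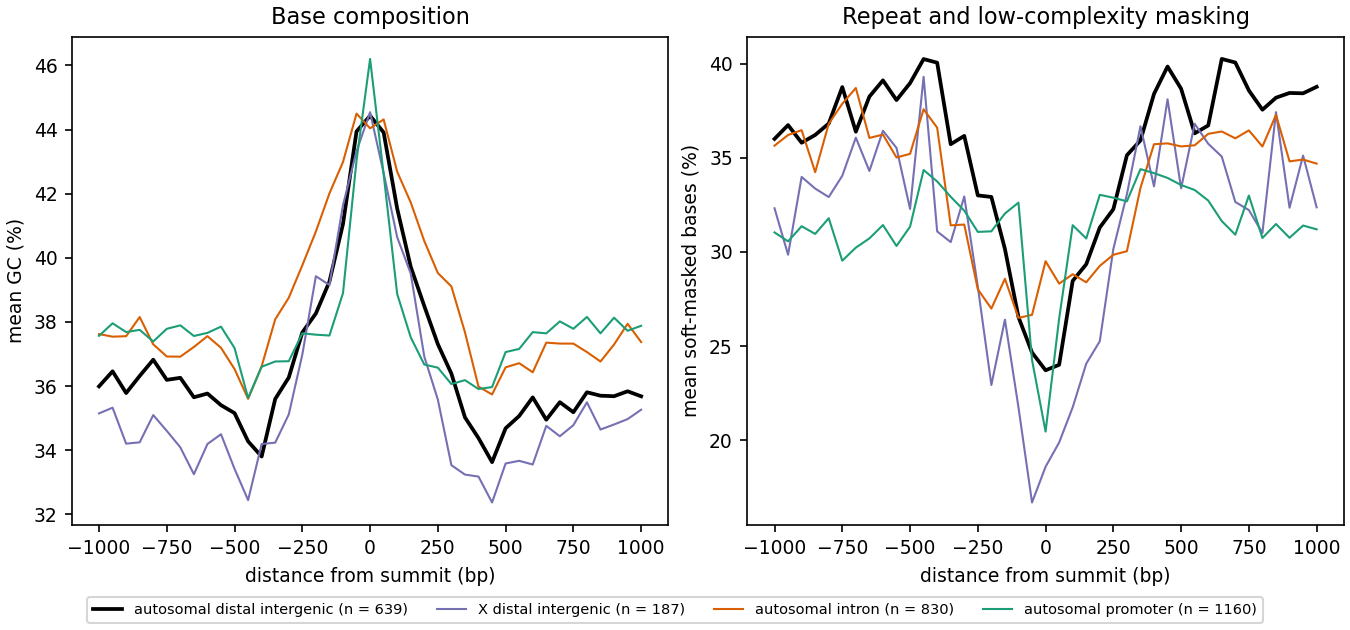
Mean GC content (left, %) and mean share of soft-masked bases (right, %) in windows reaching 75 bp to either side of points at distances of −1000 to 1000 bp from the summit, for members (black) and 3 other classes of the 5000 intervals. Member GC peaks at 44.4% at the summit, where masking falls to 23.7%, and the other classes have a like rise of GC.

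Short sequence words were counted on both strands in the same windows. GAGACGCA and AGAGAGAG had been picked from earlier results of these data, at summits of the thresholded set that include 91 of the members, so that their excess at those members is not independent evidence. GAGACGCA was present at 47 members (7.36%, 5.45 to 9.66%), against 10 of 1278 flanking windows (0.782%) and 0.910% of the tiling windows. The share was 5.66% in intron, 6.64% in promoter and 2.14% in X intergenic intervals, and 4.28% over all 5000. In the 548 members outside the thresholded set it was 32 of 548 (5.84%), and within the set 15 of 91 (16.5%).

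The word also lay close to the summit. Of its 52 copies in member windows, 27 (51.9%) were within 25 bp of the summit, and the median distance was 22.5 bp. Only 4 members held more than 1 copy. In windows centred 150 bp to the left of the summit, at it and 150 bp to the right, the word was present at 3.60%, 7.36% and 3.91% of members. Most copies of the word lay away from members. Of 1288 copies in the autosomal sequence in which a member could lie, 53 (4.11%) were within 75 bp of a member summit and 158 (12.3%) within 75 bp of any of the 30000 pooled candidates.

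AGAGAGAG, a dinucleotide repeat, was present at 62 members (9.70%, 7.52 to 12.3%), against 11 flanking windows (0.861%) and 1.19% of the tiling windows. The share was 4.94% in intron, 4.48% in promoter and 5.35% in X intergenic intervals, and 4.22% over all 5000. It stood at 16 of the 91 members in the thresholded set (17.6%) and at 46 of the other 548 (8.39%). Of the 62, 40 held more than 1 overlapping copy, up to 23, and copies lay a median of 39.5 bp from the summit. Both words were present together at 14 members (2.19%), against 0.62% of all 5000. GC content was higher where the words occurred, with medians of 49.7% at members with GAGACGCA and 47.0% at members with AGAGAGAG. Among windows at or above the members' median GC, GAGACGCA was present at 39 of 323 members (12.1%), against 3.46% of 13779 tiling windows, and AGAGAGAG at 44 (13.6%), against 3.44%.

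GCGCCAGC, a word picked from the same earlier results at promoters, was present at 3 members (0.469%), against 4.22% of promoter, 0.843% of intron and 1.54% of all 5000 intervals. It was in 0 of the 1278 flanking windows and in 0.136% of the tiling windows. Of the 3 words at least 1 was present at 98 members (15.3%), against 14.3% of promoter, 10.7% of intron and 9.26% of all 5000 intervals. A word is a match of letters and not a known binding site.

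**Figure D4:**
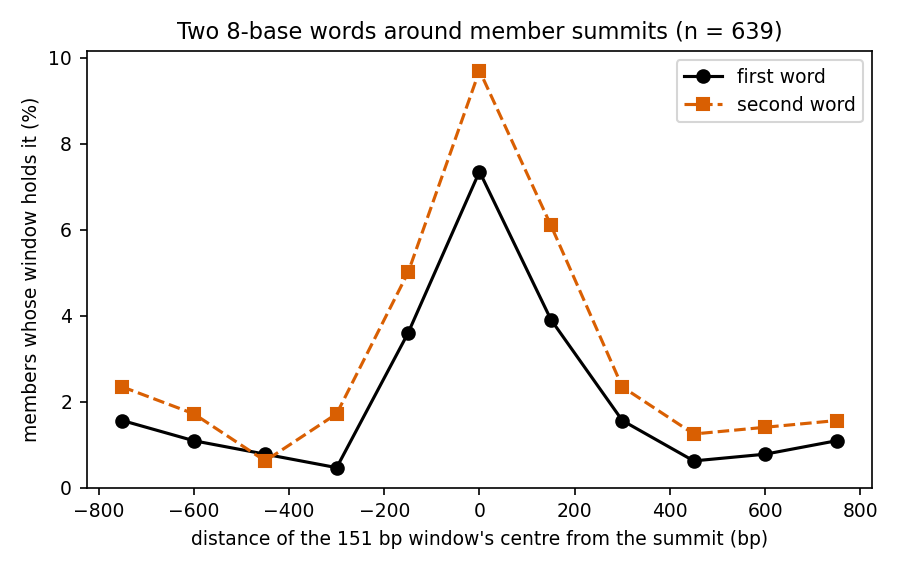
Share of the 639 members (%) whose window, 75 bp to either side of its centre, holds GAGACGCA (first word, black) or AGAGAGAG (second word, orange) on either strand, by distance of the window's centre from the summit in bp. Both are highest at the summit, at 7.36% and 9.70%.

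Members with GAGACGCA stood between genes of many kinds, named here after their values were seen. One lay between daf-16, the FOXO factor of insulin signalling, and gpx-8, a glutathione peroxidase gene (I 10777248 to 10777677), with 152.6 in the pool, 92.3 in replicate 1 and 75.1 in replicate 2. Another lay between Y55D5A.4 and daf-2, the insulin receptor gene (III 2992188 to 2992617), with 95.7, 42.0 and 45.8. The member between ogt-1, the O-GlcNAc transferase gene, and nuo-4, a gene of respiratory complex I, had 150.3, 66.4 and 85.6 (III 7155610 to 7156039). The daf-2 member was outside the thresholded set and ranked 7676 in replicate 1 and 5659 in replicate 2, while the other two were within it.

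Members were somewhat nearer to 5′ ends than the sequence open to them. The nearest protein-coding 5′ end was a median of 2374 bp away (interquartile range 1482.5 to 3733.5 bp, 452 to 13375 bp in all), against 2712 bp for the tiling windows. It was within 2000 bp at 249 members (39.0%), against 33.8%, and beyond 5000 bp at 87 (13.6%), against 21.3%. The gap between the flanking genes had a median of 5379 bp, against 7296 bp. The summit was upstream of the nearest 5′ end at 417 members (65.3%), against 65.5%. Nearest genes were mostly different ones, with 556 for 639 members.

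By orientation, 380 members (59.5%, 55.5 to 63.3%) lay between genes in tandem, against 53.5% of the tiling windows, 147 (23.0%, 19.8 to 26.5%) between divergent genes, against 28.8%, and 112 (17.5%, 14.7 to 20.7%) between convergent genes, against 17.6%. In the thresholded set the convergent share was 22.0% of 91 members. The tiling windows are weighted by the length of each gap, so that long gaps count more in them than in a count of gene pairs.

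**Figure D5:**
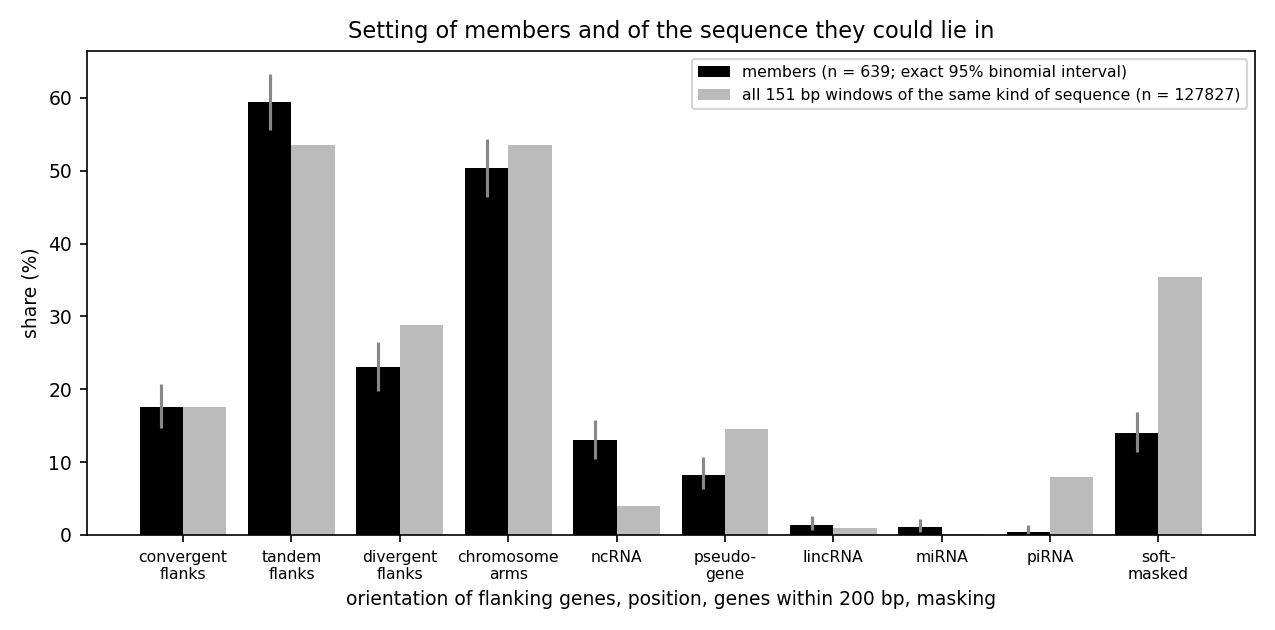
Share (%) of the 639 members (black, with exact 95% binomial intervals) and of the 127827 tiling windows (grey) by orientation of the flanking genes, position in a chromosome arm, noncoding genes within 200 bp and masking of at least 50% of the window. Members exceed the windows at ncRNA genes (13.0% against 3.95%) and fall below them at pseudogenes, piRNA genes and soft-masked sequence.

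Other noncoding genes or pseudogenes lay within 200 bp of 148 members (23.2%), against 26.7% of the tiling windows and 15.9% of all 5000, and the kinds differed. Genes annotated only as ncRNA were near 83 members (13.0%, 10.5 to 15.8%), against 3.95% of the windows, and the share over all 5000 was 13.4%. Pseudogenes were near 53 (8.29%), below the 14.6% of the windows and above the 1.52% of all 5000. Genes of piRNAs, short RNAs that guard the germline, were near 3 (0.469%), against 7.90% of the windows and 0.48% of all 5000. Long intergenic noncoding RNA genes were near 9 (1.41%), against 0.986% of the windows and 0.42% of all 5000. No rRNA or antisense RNA gene was near any member, which allows a share of up to 0.576% (upper exact limit). Both kinds were rare elsewhere too. Genes of rRNA were near 0.0759% of the windows and 0% of all 5000, and antisense RNA genes near 0.0774% and 0.28%.

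MicroRNA genes were near 7 members (1.10%, 0.442 to 2.24%), against 0.168% of the tiling windows and 0.36% of all 5000. The share was 1.07% (2 of 187) in X intergenic intervals. Several belong to the mir-51 family, which is broadly expressed and needed for development. At mir-51 the signal was 208.2 in the pool, 96.2 in replicate 1 and 103.4 in replicate 2 (IV 11025955 to 11026384). At mir-52 there were 2 overlapping members, with pooled signals of 203.3 (IV 14033788 to 14034217) and 155.0 (IV 14034041 to 14034470). At mir-53 it was 95.5 in the pool, 81.6 in replicate 1 (rank 714) and 28.5 in replicate 2 (rank 22309) (IV 11027495 to 11027924). The mir-51 and mir-52 members were thus high in the list and the mir-53 member was low and carried by replicate 1. A pair of members stood at mir-238 and 1 at mir-42 and mir-43.

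Members near long noncoding RNA genes stood at linc-128 (pooled signal 524.2), linc-91 (283.5), linc-105, linc-109, linc-129 and linc-153. Of the noncoding genes named srpr in the annotation, srpr-2.1 had 2 members (240.1 and 186.9) and srpr-3 had 1 (123.5). tRNA pseudogenes, which the rule did not remove, were within 200 bp of 3 members (0.469%), against 0.26% of all 5000 and 0.119% of the tiling windows.

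Members were spread over all autosomes. Chromosome III held 141, or 50.6 per Mb of the sequence open to them, I held 110 (39.2 per Mb), II 120 (33.6 per Mb), IV 138 (27.6 per Mb) and V 130 (25.3 per Mb), with 33.1 per Mb over 19.3 Mb in all. The median signal differed little between them, with the lowest at 99.0 on IV and the highest at 101.4 on III. Chromosome arms, taken as the outer 25% of the length at each end, held 322 members (50.4%, 46.4 to 54.3%), against 53.6% of the tiling windows. By chromosome the arms held between 43.8% (V) and 54.5% (I) of the members.

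Gene families were counted by the symbol of the nearest 5′ end, over lists chosen by symbol. The lists leave out genes of a family that have other symbols, so the counts cover listed genes only. The same lists served for members, all 5000 and the tiling windows. Chemoreceptor genes, which form large arrays in the arms, were nearest to 17 members (2.66%), against 1.46% of all 5000 and 7.01% of the tiling windows. Nuclear hormone receptor genes were nearest to 13 (2.03%), against 0.98% and 1.92%, and the highest were nhr-88 (362.9) and nhr-105 (123.5). Ribosomal protein genes were nearest to 8 (1.25%), against 1.02% and 0.248%, led by rps-27 (154.8), rpl-21 (134.9) and rps-19 (126.4). At rps-27, rpl-21 and rps-19 the summit lay beyond the 3′ end of the gene, by 217, 84 and 252 bp. Neuropeptide and insulin genes were nearest to 4 (0.626%), against 0.7% and 1.30%, led by nlp-40 (443.2). Cuticle collagen genes were nearest to 3 (0.469%), against 1.5% and 0.627%, C-type lectin genes to 4 (0.626%), against 0.6% and 0.903%, and F-box genes to 6 (0.939%), against 0.52% and 1.62%. The listed homeobox genes, mostly those with ceh symbols, were nearest to 1 member (at ceh-43, 0.156%), against 0.22% and 0.699%. MATH and BATH genes were nearest to 2 (0.313%), against 0.08% and 0.421%. Genes nearest to members but outside the lists included the homeobox genes unc-39 (161.1) and unc-62 (122.9) and the F-box gene mfb-1 (228.0). Genes of UDP-glucuronosyltransferases, cytochrome P450 enzymes and histones were nearest to none of the 639, against 0.08%, 0.14% and 0.14% of all 5000 and 0.147%, 0.250% and 0.0884% of the tiling windows.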

How the data were processed

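The authors deposited 4 interval lists on ce11 in narrowPeak format, with 30000 candidates for each replicate and for the pool, and 945 thresholded summits. Per the deposited notes, the same control file served both replicates and the pool. Column 7 is the deposited signal, for which the sources used here do not state the scaling to depth; the aligner, peak caller and IDR cutoff are likewise not given in the sources used here. Column 9 is the deposited −log10 q-value, and column 10 the deposited summit offset in bp, which is not a measurement of binding. No read counts are given, so depth is unknown.

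Intervals were annotated with Ensembl release 115 (WBcel235, 19973 nuclear protein-coding genes), in Python 3.11.15 with numpy 2.4.6, pandas 2.3.3 and scipy 1.17.1. Coordinates are 1-based. Each member took its replicate values from the candidate, among those overlapping it, whose summit was nearest, so neighbouring members can share one. Comparison sequence was all autosomal sequence outside genes, promoter windows and small RNA zones, in adjacent windows of 75 bp to either side of their centre. The members, words and gene lists were chosen with earlier results of these data known. Members named individually were the 20 of highest pooled signal and 3 to each side of rank 5000, and others are named as chosen after their values were seen. No significance test was made. Counting steps were tested on simulated data. No per-sample column was left unused.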

Additional observations from a re-analysis of the deposited data

How the results depend on the processing

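Of 86 alternative values for 13 results, 63 stayed near the reported value (within its 95% interval or, for the number of members, within 1.5 times) and 23 did not. With as few intervals as the thresholded set holds there were 91 members, and with the 2000 highest there were 246. The thresholded share was then 100% and 37.0%, the share overlapped in both replicates 96.7% and 77.2%, that with GAGACGCA 16.5% and 10.98%, and that with AGAGAGAG 17.6% and 13.0%. In the smaller set, median GC was 46.4%, repeated windows 6.59%, GCGCCAGC 0%, the convergent share 22.0%, the share in arms 44.0% and the rank correlation of replicates 0.352. In a window of 50 bp to either side AGAGAGAG was present at 7.36%. With a promoter window of 2000 bp there were 440 members, the median distance was 3113 bp and the convergent share 22.7%. Counting only summits inside a noncoding gene gave 13.9%, arms defined by chromosome length in 3 equal parts gave 70.1%, and masking of at least 50% of the window, an alternative chosen after seeing the data, gave 13.9% in place of repeated 36-base words. Taking the 5000 highest of 1 replicate in place of the pool gave median GC of 42.4% without replicate 1 and 43.7% without replicate 2. Some of these differences follow by construction. Smaller sets hold fewer members, and the members of the smallest set are those of the thresholded set. Wider arms cover more of each chromosome, and a longer promoter window removes summits nearer to 5′ ends. The cause of the other differences was not tested. No paired analysis was possible because the series holds 1 group. Depth is unknown, and 2 replicates give only a poor estimate of the spread between cultures at each region.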

Other observations

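Some members had another member nearby, which was not compared with the other intervals of the 5000 or with the tiling windows. Some neighbours overlap, as between syx-16 and ZC155.4 (III 5211104 to 5211533 and III 5211304 to 5211733). Both of these took the same replicate 1 candidate (rank 301). Within 1000 bp of each other there were 36 pairs, holding 72 members, and within 5000 bp there were 86 groups of 2 or more, holding 193 members. The largest groups held 4 members each, between sgn-1 and F07H5.13 on II, W09D10.4 and tat-3 on III, F54F12.1 and Y39E4B.6 on III, around miro-1 to fbxb-78 on IV, and between lpin-1 and letm-1 on V. Their highest pooled signals were 102.3, 139.8, 162.4, 222.8 and 158.0. Another group of 3 stood between sup-26 and R10E4.3, led by the member of 387.1, and one of 3 between mstr-1 and nars-1, led by 192.9.

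Further words were counted after the data had been seen, so their excess at members is not independent evidence. CGCAGACA was present at 30 members (4.69%), against 0.410% of the tiling windows and 1.82% of all 5000 intervals. The share was 2.05% in intron, 2.59% in promoter and 0% in X intergenic intervals. This word begins with the letters that end GAGACGCA, so the same stretch can hold both, as between cpt-1 and Y46G5A.18. Among windows at or above the members' median GC, its shares were 8.05% of members and 1.30% of tiling windows. GGTTCGA, part of the internal promoter of tRNA genes, was present at 20 members (3.13%), against 1.19% of the tiling windows and 4.62% of all 5000. Annotated tRNA genes are more than 200 bp away from every member. Of these 20, 7 (35.0%) were in the thresholded set, against 13.6% of the members without the word and 18.9% of all 5000. At or above the members' median GC, GGTTCGA was no more frequent at members (2.48%) than in tiling windows (2.99%). CACACACA was present at 32 members (5.01%), against 1.08% of the tiling windows and 3.54% of all 5000. Its share was higher in intron (6.14%) and X intergenic intervals (5.88%) and lower in promoter intervals (3.62%).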
